A study of Mus musculus with 12 samples.

Results

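Homeobox genes encode transcription factors named for their DNA-binding homeodomain, and 113 genes from 14 groups of such families were followed here in 3 mouse small cell lung cancer lines in which Nfib was lowered or raised. Members were taken by symbol alone: every feature with a single gene name that belongs to the Hox, Lhx, Emx, Otx, Pou, Dlx, Nkx, Pax, Meis, Pbx, Msx, Irx or Tshz families, with Nkx2-1 left out. They are 113 of the 23226 features with a single gene name. All lines come from tumors without Trp53 and Rb1, genes that the control samples lack as well, and are cultured as floating spheres in RPMI with 10% FBS. In 16T and KP1, both labelled Nfib high, cells with an Nfib shRNA (sh2 in the titles of both lines) were compared with cells with a control shRNA (shLuc). In KP22, labelled Nfib low, cells with a vector for Nfib cDNA were compared with cells with the empty vector. Each of the 6 groups had 2 samples, described as duplicates and not as separate cultures, so a p-value measures the spread between these samples, which may be technical. Only 1 named shRNA and 1 line with cDNA were measured, so the effect of the hairpin or of the line cannot be told apart from that of Nfib.

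The homeodomain binds short AT-rich DNA sequences, and these factors are known for setting the position and type of cells in the embryo. Hox genes lie in 4 clusters, and their order along the chromosome follows the order in which they are used along the body axis. Meis and Pbx proteins bind DNA together with Hox proteins, while LIM, POU, Otx and Emx proteins are best known from neurons and sensory cells. Pax proteins bind DNA through a paired domain, and some of them, such as Pax1 and Pax9, lack a homeodomain. In lung development, Hoxb genes are expressed in the mesenchyme and Irx genes in the epithelium.

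The authors' deposited table holds 1 mean normalized count per gene over all libraries, and for each line a log2 fold change with its SE. Values per sample and the total count of each library were not used here, so levels in a single group and the number of samples that show a direction are not given. Positive log2 fold changes mean more transcript with the Nfib shRNA in 16T and KP1, and more with Nfib cDNA in KP22. The headings do not state this direction, and it was read from Nfib itself, whose value was -1.08 ± 0.035, -1.32 ± 0.035 and 1.80 ± 0.036 in the authors' deposited table. "Rose" and "fell" below mean an adjusted p under 0.05 in the authors' deposited table (Wald test, Benjamini-Hochberg adjustment over all features above a limit on the mean), and ± gives the SE on the log2 scale. All 9 markers of neuroendocrine small cell lung cancer were abundant (means from 5290 to 45597) in the authors' deposited table. Those 9 markers moved too, with 4 rises and 3 falls in 16T, 5 rises and 4 falls in KP1, and 2 rises and 6 falls in KP22. Markers of other cell types had a mean of at least 10 for 3 of 7 leukocyte, 4 of 7 fibroblast, 3 of 4 endothelial and 4 of 6 airway and alveolar genes, with summed means of 667, 2602, 698 and 467. Cd3e, Col3a1 and Scgb1a1 were at 0, while the highest of each list were Pdgfra (2220), Kdr (495), Cd79a (494) and Sftpc (171) in the authors' deposited table. Of these markers, 16T had 3 rises (all fibroblast genes) and 3 falls, KP1 had 0 rises and 3 falls, and KP22 had 1 rise and 2 falls. Kdr fell in all 3 lines, Cd79a fell with the shRNA in both and rose with the cDNA, and Pdgfrb rose in 16T and fell in KP22. The part of any of these markers in the changes of homeobox genes was not tested. In bulk RNA, fewer cells that express a gene and less RNA per cell cannot be told apart.

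Promoter sequences are shown for 5 genes that stand for the patterns described below: the largest change in KP22 (Emx1), the largest rise there (Pou3f2), the largest change in 16T (Tshz2), a fall in all 3 lines (Hoxd4) and a rise in all 3 (Hoxb8). Each window holds 300 bases, 250 before and 50 after a RefSeq transcription start, printed 5′ to 3′ on the gene's strand (GRCm38.p6, the same build as mm10). They lie at chr6:85187681-85187980 (plus strand), chr4:22488317-22488616 (minus strand), chr2:169632259-169632558 (plus strand), chr2:74721728-74722027 (plus strand) and chr11:96281655-96281954 (plus strand). Capitals mark the NFI recognition core TTGGC on either strand, which reads GCCAA on the printed strand in every match shown.
Emx1: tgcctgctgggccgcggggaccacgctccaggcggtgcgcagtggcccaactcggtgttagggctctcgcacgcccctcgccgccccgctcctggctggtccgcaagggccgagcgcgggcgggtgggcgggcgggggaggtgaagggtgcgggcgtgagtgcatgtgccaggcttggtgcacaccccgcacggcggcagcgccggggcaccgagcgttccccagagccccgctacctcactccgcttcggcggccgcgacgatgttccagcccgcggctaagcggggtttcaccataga
Pou3f2: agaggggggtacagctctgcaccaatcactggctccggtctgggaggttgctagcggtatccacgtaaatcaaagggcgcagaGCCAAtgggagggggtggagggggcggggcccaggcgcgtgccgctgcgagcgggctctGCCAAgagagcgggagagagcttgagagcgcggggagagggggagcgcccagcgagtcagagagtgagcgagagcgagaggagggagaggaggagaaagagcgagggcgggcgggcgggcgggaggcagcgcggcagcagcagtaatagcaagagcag
Tshz2: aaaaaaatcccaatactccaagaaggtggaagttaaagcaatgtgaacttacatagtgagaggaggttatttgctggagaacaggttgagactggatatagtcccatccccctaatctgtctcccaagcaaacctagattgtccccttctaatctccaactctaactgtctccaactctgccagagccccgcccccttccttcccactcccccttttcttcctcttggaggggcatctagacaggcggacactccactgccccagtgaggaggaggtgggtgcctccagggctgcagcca
Hoxd4: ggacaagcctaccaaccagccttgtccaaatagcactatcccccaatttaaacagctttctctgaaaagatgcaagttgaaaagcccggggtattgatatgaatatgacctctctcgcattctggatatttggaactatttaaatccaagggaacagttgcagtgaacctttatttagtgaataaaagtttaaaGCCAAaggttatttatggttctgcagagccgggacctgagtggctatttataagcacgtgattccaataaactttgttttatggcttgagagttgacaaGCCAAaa
Hoxb8: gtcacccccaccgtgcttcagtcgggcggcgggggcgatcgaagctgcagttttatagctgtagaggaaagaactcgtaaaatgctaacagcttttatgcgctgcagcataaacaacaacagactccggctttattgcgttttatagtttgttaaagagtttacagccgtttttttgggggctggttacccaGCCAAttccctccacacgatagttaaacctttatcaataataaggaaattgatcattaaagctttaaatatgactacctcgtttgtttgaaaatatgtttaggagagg
Pou3f2 holds 2 matches, starting 167 and 108 bases before the start site, and Hoxd4 holds 2, at 56 bases before and 44 bases after it. Hoxb8 holds 1 match, 58 bases before the start. The Hoxb8 match and 1 of the Pou3f2 matches also overlap the letters CCAAT. Emx1 and Tshz2 hold none in these windows. RefSeq windows were found for 75 of the 113 genes (91 windows), and 46.2% of these windows hold the NFI core, against 46.7% of all 32851 windows. The NFI palindrome, in which the core is followed after 5 bases by its reverse complement, was in 0 of the 91 windows (0.0365% of all), and the homeodomain core TAATTA was in 6.59% (5.29% of all). The share with the core is thus close to that of all windows, and a match is a string of letters and no measured site.

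Of the 113 genes, 14 had a mean of 0, 23 a mean above 0 and under 1, and 13 a mean from 1 to under 10. The remaining 63 had a mean of at least 10 in the authors' deposited table, among them 25 at or above 1000. Per kb of counted exon, Hoxb9 had the highest level, 4832 normalized counts per kb, followed by Hoxb6 (3328), Hoxb8 (2762), Hoxb5 (2623) and Hoxb7 (2278). The next in order were Irx2 (1685), Hoxb2 (1453), Pbx2 (1309), Tshz2 (1036) and Meis2 (996), on the same scale of normalized counts per kb. Clusters A and C were close to silent: none of their 20 genes had a mean of at least 10, and 8 of the 20 were at 0. Hoxa9 had the highest level of cluster A, 1.55 normalized counts per kb, and Hoxc9 the highest of cluster C, 0.104. Cluster B had 9 of 10 genes at a mean of at least 100 and cluster D 5 of 9. The spread of these levels over samples is unknown here, so their order is a description.

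**Figure D1:**
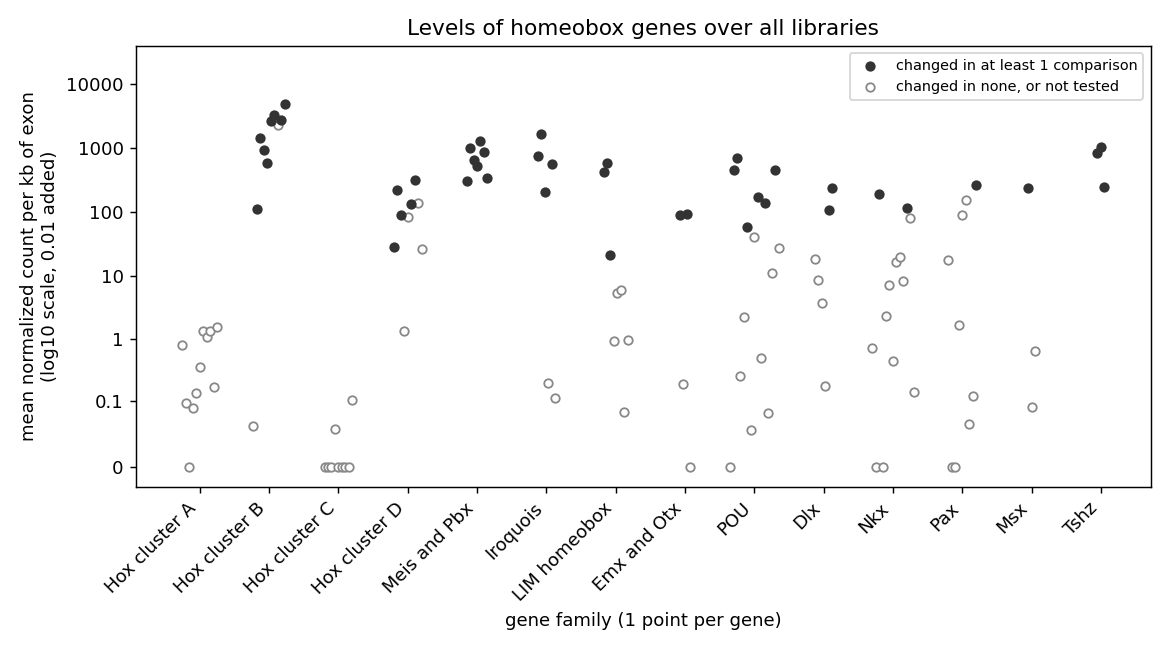
Mean normalized count per kb of exon over all libraries (vertical axis, log10 scale with 0.01 added) of each of the 113 homeobox genes, by family. Filled points are genes that rose or fell in at least 1 line, open points the rest; clusters A and C sit below 2 counts per kb, while Hoxb9 reaches 4832.

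Adjusted p-values were given for 58 of the 113 genes in 16T and KP1 and for 78 in KP22, where the authors' limit on the mean was lower (0.926 against 15.7). In 16T, 15 of the 58 tested genes rose and 15 fell, which is 30 called beside 45.3% of all features with a single name. In KP1, 12 rose and 13 fell, 25 of 58 beside a background of 37.2%. KP22 had 21 rises and 8 falls, 29 of 78 beside 38.4%; rises made up 19.5% and falls 18.8% of all features tested there. The shares of called homeobox genes in 16T and KP1 thus lie near those of all genes, with more rises than falls in KP22. Medians over the tested members were -0.27 in 16T, -0.20 in KP1 and 0.30 in KP22, beside -0.05, -0.02 and 0.04 over all features tested. A called change of 1 or more (log2) was seen for 6 members in 16T, 3 up and 3 down, beside 6.36% of all features (3.76% up, 2.61% down). For KP1 the number was 9, with 3 up and 6 down, beside 5.96% (2.81% up, 3.14% down), and for KP22 it was 9, with 5 up and 4 down, beside 8.07% (2.88% up, 5.19% down). Against a change of 0.5, the test in the authors' deposited table called 4 members in 16T (Meis2, Msx1, Pou4f3 and Tshz2; 5.56% of all features), 6 in KP1 (4.87%) and 9 in KP22 (7.20%). If the Wald statistic is read against a t reference (6 degrees of freedom), the calls number 20 in 16T, 12 in KP1 and 24 in KP22. The share of all features called under this reference was not computed. These counts and all later ones under the t reference thus stand without a background, and the shares above do not apply to them.

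Called in all 3 lines were 13 genes, beside 15.1% of all features tested in all 3. Of these, 4 fell with the shRNA in both lines and rose with the cDNA: Irx1, Irx2, Lhx1 and Pou4f3 (5.33% of all features). Another 3 rose with the shRNA in both lines and fell with the cDNA: Meis2, Meis3 and Tshz2 (4.76% of all features). Hoxb2, Hoxb8 and Tshz1 rose in all 3 (1.25%), and Hoxd4 fell in all 3 (1.01%). Dlx5 and Pou4f1 fell in 16T and rose in KP1 and KP22. Pbx4, called in the knockdown lines only, fell in 16T and rose in KP1; opposite calls in 16T and KP1 were made for 4.54% of all features. Because lowering and raising Nfib are opposite changes, the first 7 genes moved with or against Nfib in each line, and Hoxb2, Hoxb8, Tshz1 and Hoxd4 moved the same way under both. Under the t reference Hoxb2 and Hoxb8 were not called in KP1, Tshz1 not in 16T and Hoxd4 in neither knockdown line, so none of the 4 was then called in all 3. Meis3 was then called in KP22 alone.

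Cluster B, on chromosome 11, had the highest median level of the Hox clusters, 1865 normalized counts per kb, and several of its genes rose in KP22. There 6 of the 9 tested genes rose and 0 fell, with a median of 0.42 (rises were 19.5% of all features). Hoxb2, a gene of hindbrain patterning near the 3′ end of the cluster (chromosome 11, 96351632 to 96354014, plus strand, mm10), had the largest of these, 0.77 ± 0.079 in the authors' deposited table, a 1.70-fold increase. Next came Hoxb4 (0.60 ± 0.093), Hoxb5 (0.42 ± 0.066) and Hoxb9 (0.42 ± 0.044) in the authors' deposited table, where Hoxb6 had 0.34 ± 0.060 and Hoxb8 0.33 ± 0.061. Hoxb3 (0.16 ± 0.074) and Hoxb7 (0.13 ± 0.070), which lie between them, did not pass in the authors' deposited table. Hoxb13, set apart from the others by a long gap, was measured with an SE close to the largest of any feature (0.521): 0.48 ± 0.52 in the authors' deposited table.

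With the Nfib shRNA fewer genes of cluster B were called: of 9 tested, 3 rose and 0 fell in 16T, and 2 rose and 2 fell in KP1. Over all features, 20.0% rose and 25.3% fell in 16T and 17.6% rose and 19.6% fell in KP1, so the counts in KP1 are near the background. The 3 rises in 16T remained called under the t reference, and in KP1 the fall of Hoxb13 was the 1 call of the cluster. Hoxb2 rose in 16T (0.42 ± 0.077) and in KP1 (0.28 ± 0.078) in the authors' deposited table. Hoxb8 rose likewise, by 0.40 ± 0.059 and 0.22 ± 0.060 in the authors' deposited table. Hoxb3 rose in 16T (0.36 ± 0.074) and had 0.15 ± 0.075 in KP1 (adjusted p = 0.113) in the authors' deposited table. The falls were in KP1: Hoxb6 by a small amount (-0.16 ± 0.060) and Hoxb13, a gene of the posterior axis and the prostate, by more (-1.06 ± 0.25), per the authors' deposited table. Exons of Hoxb2 and Hoxb3 overlap those of the antisense gene Hoxb3os, and those of Hoxb5 overlap Hoxb5os; whether counting used the strand is not given in the sources used here, so such partners cannot be told apart. A second Hoxb3 feature, merged from 2 exons, gave 0.39 ± 0.13 in 16T and 0.12 ± 0.13 in KP22, again in the authors' deposited table, close to the main one.

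**Figure D2:**
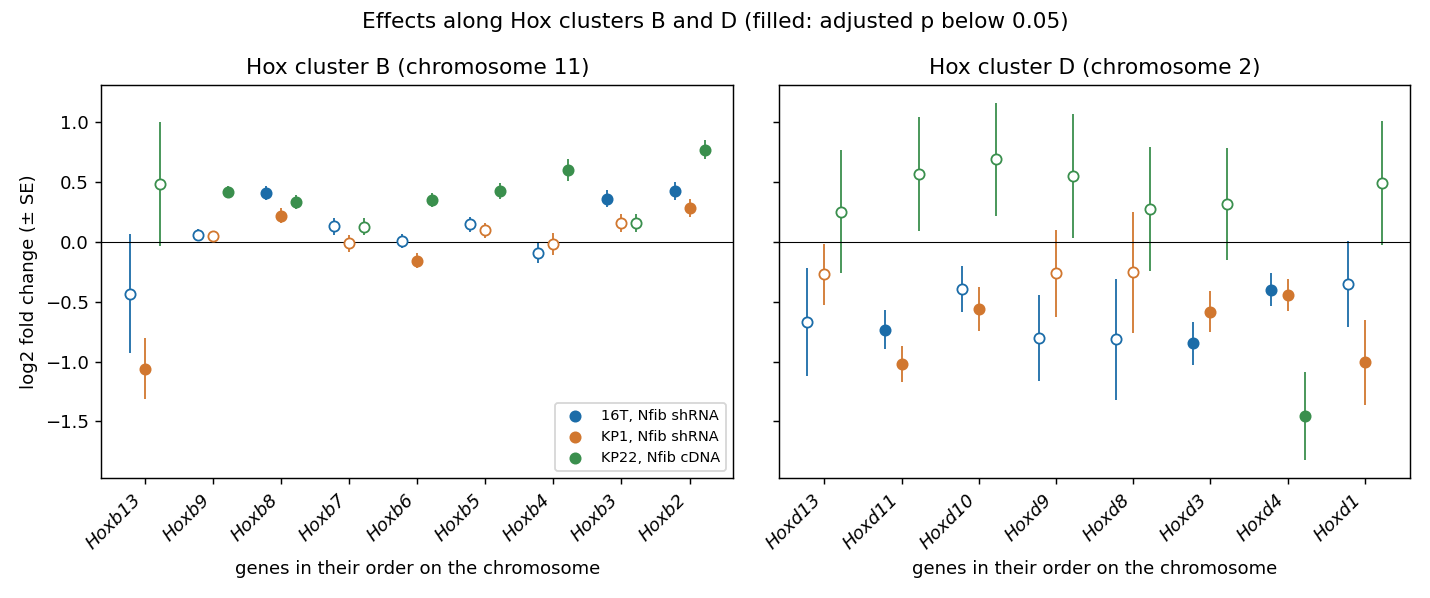
Log2 fold change (± SE) of the genes of Hox clusters B and D with a mean of at least 10, in chromosome order, for the 3 lines; filled points have an adjusted p below 0.05. In cluster B 6 genes rose in KP22 and in cluster D the knockdown values are all below 0, while Hoxd4 is the cluster D gene that fell in KP22 (-1.46 ± 0.37).

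Genes of cluster D, on chromosome 2, fell with the Nfib shRNA where they were called. Of 7 tested genes, 0 rose and 3 fell in 16T and 0 rose and 5 fell in KP1, beside 25.3% and 19.6% of all features falling there; the medians were -0.67 and -0.56. Of the 3 falls in 16T, 2 (Hoxd3 and Hoxd11) were called under the t reference, and of the 5 in KP1, 1 (Hoxd11). Hoxd11, a posterior gene of limb and axis, fell in 16T (-0.73 ± 0.16) and in KP1 (-1.02 ± 0.15), in the authors' deposited table. Hoxd3 fell in both as well (-0.85 ± 0.18 and -0.59 ± 0.17) in the authors' deposited table. Hoxd10 (-0.56 ± 0.19) and Hoxd1 (-1.01 ± 0.36) fell in KP1 in the authors' deposited table; in 16T their adjusted p were 0.0825 and 0.471. The difference between 16T and KP1 was called for 0 of the 8 cluster D genes with a mean of at least 10. Hoxd8 is mostly counted in a second feature merged from 2 exons (mean 1721 against 15.4). That feature fell in 16T (-0.45 ± 0.12) and in KP1 (-0.56 ± 0.12) in the authors' deposited table, and had 0.64 ± 0.44 in KP22 (adjusted p = 0.282).

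In KP22 the cluster D genes were measured with SEs from 0.368 to 0.517 among those with a mean of at least 10, and 1 of 9 tested was called. That gene, Hoxd4 (chromosome 2, 74721978 to 74729159, plus strand, mm10), had -1.46 ± 0.37 (adjusted p = 0.000388) in the authors' deposited table, a fall to 36.5% of the control level. It also fell in 16T (-0.40 ± 0.13) and KP1 (-0.45 ± 0.13) in the authors' deposited table. The other 7 with a mean of at least 10 had values above 0, from 0.25 for Hoxd13 to 0.68 for Hoxd10 in the authors' deposited table, none past the threshold. Exon intervals counted as Hoxd3 overlap Hoxd4 by 324 bases in GENCODE M21, so reads of these 2 genes may be shared between them.

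Meis and Pbx genes encode partners of Hox proteins, and all 7 were tested in each line. In 16T 6 of 7 rose and 1 fell, in KP1 5 rose and 0 fell, and in KP22 1 rose and 3 fell, beside rises of 20.0%, 17.6% and 19.5% and falls of 25.3%, 19.6% and 18.8% of all features. Under the t reference 4 rises were called in 16T, 2 in KP1 (Meis2 and Pbx3) and 0 in KP22, with falls of 0, 0 and 3. Meis2 (chromosome 2, 115861264 to 116065058, minus strand, mm10; mean 5138) rose in 16T (1.49 ± 0.069) and KP1 (0.58 ± 0.070) and fell in KP22 (-0.99 ± 0.074), in the authors' deposited table. These are 2.82 and 1.49 times the control level with the shRNA and 50.2% of it with the cDNA. A second Meis2 feature, of 111 bases, had 1.66 ± 0.18, 0.68 ± 0.18 and -0.79 ± 0.21 in the authors' deposited table. Meis3 had the same signs, 0.30 ± 0.11 and 0.31 ± 0.11 with the shRNA and -0.69 ± 0.11 with the cDNA, in the authors' deposited table. A second Meis3 feature had 0.56 ± 0.20 in 16T and -0.97 ± 0.21 in KP22, both called, and 0.22 ± 0.20 in KP1 (adjusted p = 0.450), in the authors' deposited table. Meis1, known from blood progenitors and leukemia, rose in 16T (0.24 ± 0.10) and, unlike Meis2 and Meis3, had a rise of 0.30 ± 0.11 in KP22 according to the authors' deposited table.

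Pbx3 rose in both knockdown lines, by 0.62 ± 0.082 in 16T and 1.33 ± 0.086 in KP1, and had -0.12 ± 0.082 in KP22 (adjusted p = 0.254), in the authors' deposited table. Pbx2 rose by small amounts in 16T (0.22 ± 0.063) and KP1 (0.20 ± 0.064), again in the authors' deposited table. Pbx4 fell in 16T (-0.35 ± 0.15) and rose in KP1 (0.43 ± 0.14) in the authors' deposited table. The size of the Pbx3 rise differed between the lines, by -0.71 ± 0.12 on the log2 scale (16T minus KP1; adjusted p = 5.13e-08).

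The Tshz genes encode large proteins with zinc fingers and a homeodomain. Tshz2 (chromosome 2, 169633646 to 169888504, plus strand, mm10; mean 5296) had the largest change of any of the 113 genes in 16T, 1.57 ± 0.052 in the authors' deposited table, which is 2.98 times the control. In KP1 it rose (0.80 ± 0.053) and in KP22 it fell (-1.17 ± 0.057), to 44.5% of the control, in the authors' deposited table. Turned towards higher Nfib, its mean effect over the knockdown lines and its effect in KP22 differed by -0.02 ± 0.068 (adjusted p = 0.888). Up to 4978 bases of a Tshz2 exon overlap the antisense noncoding gene Gm26883, from which its reads cannot be told apart here. Tshz3 was called in 16T, where it rose (0.39 ± 0.097), and in KP22, where it fell (-0.34 ± 0.094); Tshz1 rose in all 3 lines, by 0.12 ± 0.049, 0.21 ± 0.049 and 0.22 ± 0.051, in the authors' deposited table.

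**Figure D3:**
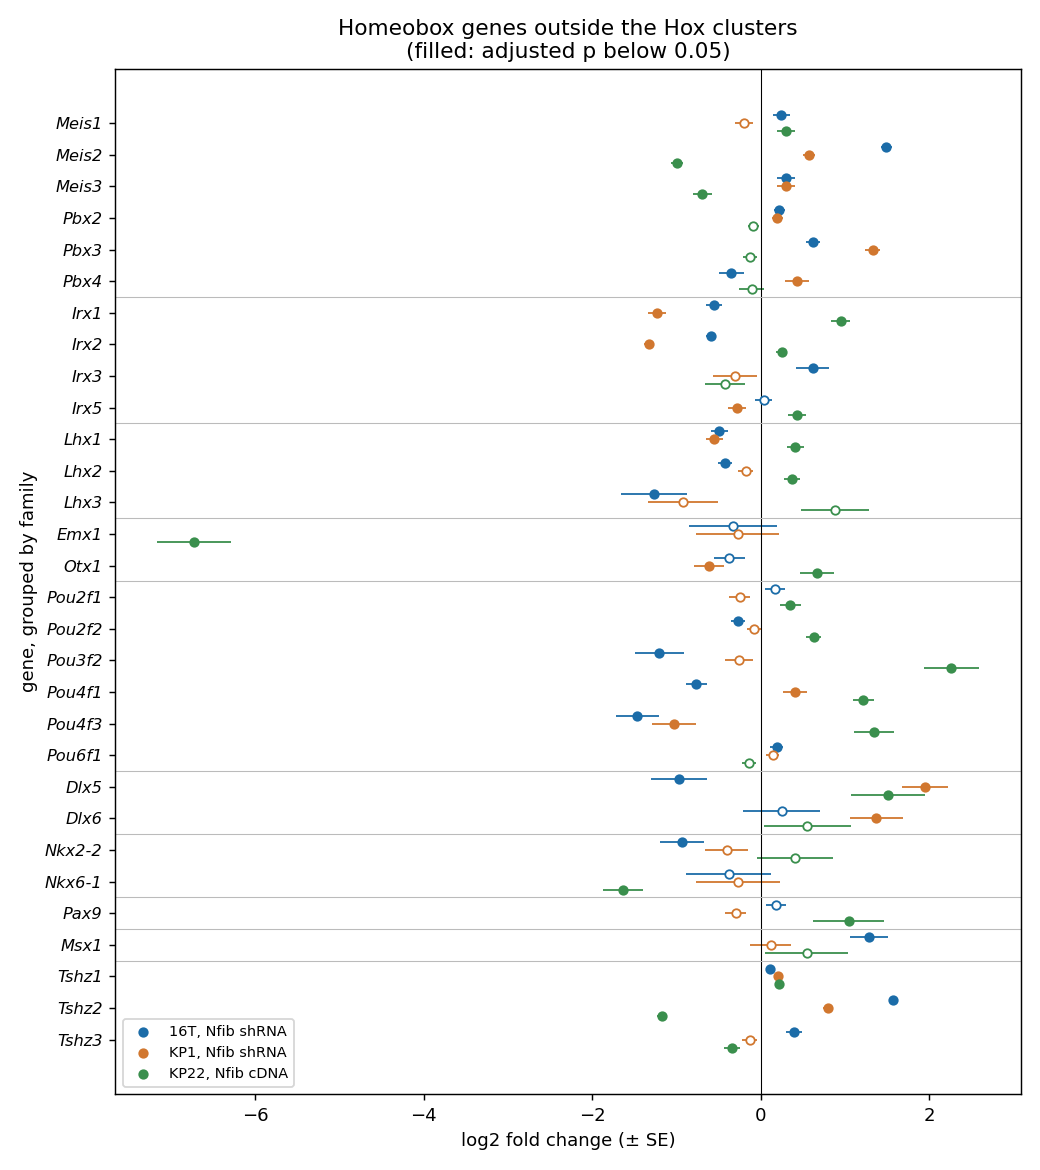
Log2 fold change (± SE, horizontal axis) of the reported genes outside the Hox clusters that rose or fell in at least 1 line, grouped by family; filled points have an adjusted p below 0.05. Meis2 and Tshz2 lie right of 0 in the knockdown lines and left of it in KP22, Irx1, Irx2 and Lhx1 the other way round, and Emx1 in KP22 stands at -6.73.

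Of the Iroquois genes, which pattern neural tissue and lung epithelium, the neighbors Irx1 and Irx2 on chromosome 13 fell with the shRNA and rose with the cDNA. Irx2 (chromosome 13, 72628978 to 72634194, plus strand, mm10), the highest per kb of the 113 genes outside the Hox clusters, fell in 16T (-0.59 ± 0.059) and KP1 (-1.33 ± 0.060) in the authors' deposited table. In KP22 it rose by 0.25 ± 0.063 in the authors' deposited table, and the knockdown effect turned towards higher Nfib exceeded this by 0.71 ± 0.076 (adjusted p = 2.31e-19). Irx1 fell in 16T (-0.55 ± 0.098) and KP1 (-1.23 ± 0.10) and rose in KP22 (0.95 ± 0.11), to 1.93 times the control, in the authors' deposited table. Both falls were larger in KP1 than in 16T, with differences (16T minus KP1) of 0.68 ± 0.14 for Irx1 and 0.74 ± 0.084 for Irx2 (adjusted p = 1.59e-05 and 6.5e-17).

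The other expressed Iroquois genes are Irx3 and Irx5 on chromosome 8. Irx5 fell in KP1 (-0.28 ± 0.11) and rose in KP22 (0.43 ± 0.10), with 0.04 ± 0.099 in 16T, in the authors' deposited table. Irx3 rose in 16T (0.62 ± 0.19) and had -0.30 ± 0.26 (adjusted p = 0.423) in KP1, per the authors' deposited table. A second Irx3 feature of larger mean (327 against 252) rose in 16T (0.74 ± 0.17) and fell in KP1 (-0.69 ± 0.23) in the authors' deposited table. Of the 4 tested Iroquois genes, 16T had 1 rise and 2 falls, KP1 had 0 rises and 3 falls, and KP22 had 3 rises and 0 falls. The shares over all features were 20.0% and 25.3%, 17.6% and 19.6%, and 19.5% and 18.8%. Irx3 in 16T and Irx5 in KP1 were not called under the t reference. Irx4 and Irx6 had means under 1.

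The Lhx genes, LIM homeobox genes known from motor neurons, the eye and the pituitary, fell with the shRNA where they were called. In 16T 0 rose and 3 of 4 tested fell (25.3% of all features), in KP1 1 of 4 fell (19.6%), and in KP22 2 of 7 rose (19.5%), the counts in KP1 and KP22 being near the background. Lhx1 fell in 16T (-0.49 ± 0.098) and KP1 (-0.55 ± 0.097) and rose in KP22 (0.41 ± 0.098) in the authors' deposited table. Lhx2 fell in 16T (-0.42 ± 0.087) and rose in KP22 (0.37 ± 0.095), with -0.18 ± 0.087 in KP1, in the authors' deposited table. Lhx3, a gene of low mean (49.6), fell in 16T (-1.27 ± 0.39) in the authors' deposited table; its adjusted p were 0.0713 in KP1 and 0.0804 in KP22. Otx1, a gene of the forebrain and sense organs, fell in KP1 (-0.61 ± 0.18) and rose in KP22 (0.67 ± 0.20) in the authors' deposited table. Neither call of Otx1 nor that of Lhx3 was made under the t reference.

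Emx1, a gene of the dorsal forebrain (chromosome 6, 85187931 to 85204463, plus strand, mm10), had the largest change of all 113 genes: -6.73 ± 0.44 (adjusted p = 1.02e-50) with Nfib cDNA in KP22, per the authors' deposited table. The fitted value corresponds to 0.942% of the empty vector level, at a mean of 106 over all libraries. In 16T it had -0.33 ± 0.52 and in KP1 -0.27 ± 0.49 in the authors' deposited table, with SEs near the largest of any feature. The gene was thus hardly measured in the knockdown lines, and no difference between them and KP22 is read from it. The genes whose 3 log2 fold changes lay nearest to those of Emx1 by Euclidean distance, over the 15008 genes with a mean of at least 10, were Gm7271, Vstm2b, Pck1, Frem1 and AW551984. Their distances ran from 0.469 to 1.90 log2 units. Because Emx1 was hardly measured in the knockdown lines, this nearness rests mainly on its value in KP22.

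The POU genes Pou3f2, Pou4f1 and Pou4f3, all of the nervous system or sense organs, fell in 16T and rose in KP22. The family had 1 rise and 4 falls in 16T (8 tested), 1 rise and 1 fall in KP1 (8 tested), and 5 rises among 11 tested in KP22. Over all features, rises made up 20.0%, 17.6% and 19.5% and falls 25.3%, 19.6% and 18.8%, so the counts in KP1 are near the background. The rise of Pou4f1 in KP1 was not called under the t reference, nor were 1 rise and 1 fall of POU genes in 16T and 1 rise in KP22. Pou3f2, which encodes the neural factor Brn2 (chromosome 4, 22482095 to 22488366, minus strand, mm10), fell in 16T (-1.20 ± 0.29) and rose in KP22 (2.27 ± 0.33) in the authors' deposited table. The latter, 4.81 times the control, was the largest rise of the 113 genes in KP22, and the value in KP1 was -0.25 ± 0.17 in the authors' deposited table. Pou4f3, a gene of sensory hair cells, fell in 16T (-1.46 ± 0.26) and KP1 (-1.03 ± 0.26) and rose in KP22 (1.35 ± 0.24) in the authors' deposited table. Its relative Pou4f1, a gene of sensory neurons, fell in 16T (-0.76 ± 0.12) but rose in KP1 (0.41 ± 0.14) and KP22 (1.22 ± 0.12), in the authors' deposited table. The difference between 16T and KP1 was -1.17 ± 0.19 for Pou4f1 (adjusted p = 1.32e-08) and -0.95 ± 0.34 for Pou3f2 (adjusted p = 0.0198), and for Pou4f3 it was -0.44 ± 0.36 (adjusted p = 0.412).

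The other called POU genes had changes under 1 on the log2 scale. Pou2f2, the lymphocyte factor Oct2, fell in 16T (-0.27 ± 0.085) and rose in KP22 (0.63 ± 0.089) in the authors' deposited table. A second Pou2f2 feature had 0.05 ± 0.22 in 16T and 0.80 ± 0.23 in KP22 there, and another, joined with Mir6537, had -0.20 ± 0.19 and 0.76 ± 0.20. Neither was called in 16T, and both rose in KP22. Pou2f1 rose in KP22 (0.35 ± 0.12) and Pou6f1 rose in 16T (0.19 ± 0.080) in the authors' deposited table. Pou2f3, which marks tuft cells and a form of small cell lung cancer without neuroendocrine features, had a mean of 0.646, and Pou5f1, the stem cell factor Oct4, had 0.0899, in the authors' deposited table.

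Dlx5 and Dlx6, neighbors on chromosome 6 that act in the skeleton and forebrain, rose in KP1. Dlx5 rose by 1.95 ± 0.28 in KP1, the largest change of the 113 genes there, and by 1.51 ± 0.44 in KP22, but fell in 16T (-0.97 ± 0.33), in the authors' deposited table. A second Dlx5 feature of 185 bases gave 1.73 ± 0.40 in KP1, which was called, -0.91 ± 0.46 for 16T and 0.96 ± 0.51 for KP22 (all from the authors' deposited table). Under the t reference Dlx5 was called in KP1 and not in 16T or KP22. Dlx6 rose in KP1 (1.37 ± 0.31) and had 0.25 ± 0.46 in 16T and 0.55 ± 0.52 in KP22, per the authors' deposited table. That feature has 383 bases. A longer Dlx6 feature of 1938 bases, joined with Dlx6as2, rose in KP1 too (1.26 ± 0.38). For KP22 it gave 0.70 ± 0.52 and for 16T -0.48 ± 0.45, neither called. The sign of Dlx6 in 16T thus differed between features and is not read here. The difference between 16T and KP1 was -2.92 ± 0.43 for Dlx5 (adjusted p = 2.76e-10) and -1.12 ± 0.55 for Dlx6 (adjusted p = 0.116). For the longer Dlx6 feature this difference was not tested. The 5 genes nearest to Dlx5 in their 3 log2 fold changes were Cdh7, St3gal1, Sox2, Hes5 and Amotl2, at distances from 0.737 to 0.997. Nearest to Tshz2 were Slc35f3, Dusp6, Peg3, Abcc8 and Fam117a, at 0.104 to 0.239.

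Of the remaining families, 1 or 2 genes each were called. For Nkx these were 1 of 5 tested genes in 16T, 0 of 5 in KP1 and 1 of 9 in KP22. In the same order, Pax had 0 of 4, 0 of 4 and 1 of 5, and Msx 1 of 1, 0 of 1 and 0 of 2. Over all features, 45.3%, 37.2% and 38.4% were called. Msx1, a gene of limb and tooth buds that BMP signals induce, rose in 16T (1.28 ± 0.23) and had 0.12 ± 0.24 in KP1, in the authors' deposited table; the difference was 1.17 ± 0.33 (adjusted p = 0.00272). Nkx2-2, a gene of ventral neural tube and pancreatic endocrine cells, fell in 16T (-0.94 ± 0.26) in the authors' deposited table. Nkx6-1, which acts in motor neuron progenitors and beta cells, fell in KP22 (-1.63 ± 0.24), to 32.2% of the control, in the authors' deposited table. Pax9, a gene of tooth and pharyngeal development, rose in KP22 (1.05 ± 0.42, adjusted p = 0.0391) in the authors' deposited table. Pax5 and Pax6 had means of 109 and 560 and were called in none of the 3 lines, and Pax2 and Pax3 were at 0, in the authors' deposited table.

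The knockdown effect itself was then compared between 16T and KP1. Of the 63 homeobox genes with a mean of at least 10, 16 differed (11 above and 5 below 0), beside 29.4% of all 15008 genes tested. Dlx5 and Pou4f1, already given, had effects called in opposite directions, as did Pbx4 (-0.77 ± 0.21, adjusted p = 0.00118). Under the t reference none of these 3 kept calls in both lines: Dlx5 was called in KP1, Pou4f1 in 16T and Pbx4 in neither. Meis2 and Tshz2 rose in both lines and by more in 16T, with differences of 0.92 ± 0.098 and 0.78 ± 0.074 (adjusted p = 4.87e-19 and 1.34e-23). Tshz3 (0.53 ± 0.13), Meis1 (0.44 ± 0.14), Irx3 (0.92 ± 0.33) and Pax9 (0.48 ± 0.17) were also higher in 16T than in KP1 on the scale of this difference. Under the t reference 7 calls were made.

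**Figure D4:**
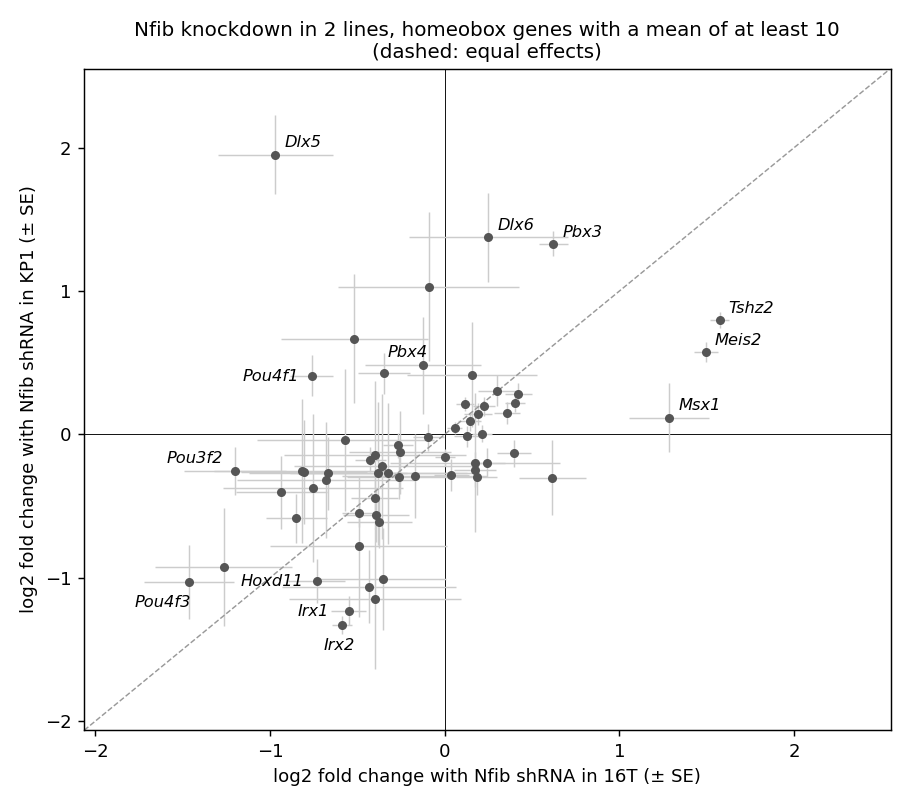
Log2 fold change with the Nfib shRNA in 16T (horizontal axis) against KP1 (vertical axis) for the 63 homeobox genes with a mean of at least 10; bars are SEs and the dashed line marks equal effects. Dlx5 lies far above the line (-0.97 and 1.95), Meis2, Tshz2 and Msx1 lie below it, and Pou4f3 and the Irx1 and Irx2 pair lie in the lower left.

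Effects of lowering and raising Nfib were set against each other after turning both towards higher Nfib. They differed for 22 of the 63 genes (6 above and 16 below 0), beside 36.7% of 15008 genes. Cluster B supplied 7 of the 22. These were 7 of its 9 tested genes, all called below 0, beside 17.7% of all genes tested that were called below 0. They ran from -0.27 ± 0.073 for Hoxb6 to -1.12 ± 0.096 for Hoxb2 (adjusted p = 0.00122 and 1.58e-29). The mean of the 3 turned effects passed for 34 of the 63 genes, 23 above and 11 below 0, beside 52.9% of 15008 genes. Its SE comes from the SEs within the lines and leaves out the spread between lines, so a gene could pass although the lines disagreed. Hoxb8, which rose in all 3 lines, passed below 0 (-0.096 ± 0.035). Pou4f1, with opposite calls in 16T and KP1, passed above 0 (0.52 ± 0.076). The highest values of this mean were 1.28 ± 0.14 for Pou4f3, 1.24 ± 0.16 for Pou3f2, 1.02 ± 0.23 for Lhx3 and 0.91 ± 0.060 for Irx1. Dlx2, with no call in any single line, had 0.83 ± 0.29 (adjusted p = 0.00982), and Hoxd9 had 0.54 ± 0.24 (adjusted p = 0.0497). The lowest were -2.04 ± 0.28 for Emx1, -1.18 ± 0.031 for Tshz2, -1.02 ± 0.041 for Meis2 and -0.69 ± 0.048 for Pbx3. Among these, Emx1 was called in KP22 and Lhx3 in 16T, and each in no other line, so the mean for Emx1 rests on KP22.

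Partners and regulators of homeobox genes were read from a list of 52 genes, of which 51 are in the table. In 16T 19 rose and 9 fell of 48 tested, in KP1 13 and 14 of 48, and in KP22 16 and 14 of 51, beside 45.3%, 37.2% and 38.4% of all features called. Those that changed by at least 1 in 2 or more lines (named after their values were seen) were Aldh1a2, Cyp26b1, Lmo1, Lmo2 and Lmo3. The retinoic acid genes Aldh1a2, which makes it, and Cyp26b1, which degrades it, rose with the shRNA and fell with the cDNA. Aldh1a2 had 0.77 ± 0.055, 1.11 ± 0.061 and -1.68 ± 0.068, and Cyp26b1 2.47 ± 0.22, 2.03 ± 0.28 and -1.68 ± 0.36 in 16T, KP1 and KP22, in the authors' deposited table. No other retinoic acid gene of the list did both. Rara rose with the shRNA only (0.97 ± 0.12 and 0.65 ± 0.12), while Rxra fell with it (-0.32 ± 0.071 and -0.30 ± 0.069), in the authors' deposited table. Rarb (0.79 ± 0.15) and Crabp2 (1.07 ± 0.35) rose with the cDNA only, in the authors' deposited table. Aldh1a3, Cyp26a1, Crabp1 and Rarg were called in no line. Of the LIM-only genes, whose products bind the same cofactor as LIM homeodomain proteins, Lmo2 rose with the shRNA (1.80 ± 0.15 and 1.31 ± 0.14) and fell with the cDNA (-1.14 ± 0.23) in the authors' deposited table. Lmo1 fell in 16T (-1.01 ± 0.13) and rose in KP22 (1.46 ± 0.11), and Lmo3 fell in KP1 (-1.71 ± 0.42) and rose in KP22 (1.11 ± 0.41), in the authors' deposited table. The corepressor gene Tle4 fell in KP1 (-1.68 ± 0.12) and in 16T (-0.87 ± 0.12), and Aldh1a1 rose in KP1 (2.07 ± 0.26) and 16T (0.95 ± 0.25), in the authors' deposited table.

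A further list of 81 homeobox genes outside the families above had 7 rises and 11 falls of 45 tested in 16T, 6 and 9 of 45 in KP1, and 9 and 7 of 67 in KP22, beside 45.3%, 37.2% and 38.4% of all features called. Barhl1 and Onecut1 are among those that changed by at least 1 in 2 or more lines and were again named after their values were seen. Barhl1, a gene of hair cells and cerebellum, fell in 16T (-1.11 ± 0.27) and KP1 (-2.25 ± 0.21), as did Onecut1 (-1.35 ± 0.31 and -1.75 ± 0.30), in the authors' deposited table. The LIM homeobox genes of this list did not share a direction. Isl2 fell with the shRNA (-0.91 ± 0.26 and -0.98 ± 0.41) and rose with the cDNA (1.51 ± 0.30) in the authors' deposited table. Lmx1b rose in all 3 lines (0.36 ± 0.10, 0.59 ± 0.10 and 0.66 ± 0.11), and Isl1 rose in KP1 (0.78 ± 0.088) and KP22 (4.94 ± 0.24), in the authors' deposited table.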

How the data were processed

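RNA of 12 samples of 3 lines (Qiagen RNeasy kit, Illumina TruSeq v2 kit, per the labels' protocols) was sequenced by the authors. TopHat, bedtools, DESeq and DESeq2 and build mm10 are named per the submitters' processing notes; for versions, roles and strand use, the sources used here give none. The deposited table gives, per the file headers, a mean normalized count (signal) over all libraries, a log2 fold change, its SE and Wald statistic (a score each), and the deposited p-values, plain and adjusted, against 0 and against an absolute log2 change of 0.5. Its name mentions cqn normalization. The largest SE was 0.521, and genes near 0 counts had smaller ones, such as 0.165 in 16T for Hoxc13 (mean 0.0741). Fold changes of low genes may thus have been shrunk towards 0. The design had allowed for counts; as the file holds results of comparisons, the authors' test was used. Features with several joined names (4886) were kept out of counts.

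Contrasts between lines took the deposited SEs as independent and used the normal distribution, adjusted by Benjamini-Hochberg over 15008 genes with a mean of at least 10 (Python 3.11.15, pandas 2.3.3, scipy 1.17.1; tested on simulated data). Exon lengths come from the authors' deposited merged RefSeq intervals, whose other value is the number of exons merged, and overlaps from GENCODE M21. Genes were named if they changed by at least 1 with an adjusted p below 0.05, were called in all 3 lines or in the mean effect, or were among the 5 of highest mean; others were named after their values were seen, and some genes that enter the counts are not reported here. Members and lists were chosen with earlier results of these data known. Alternatives were other adjustments, a minimum change, the test against 0.5, recentring, other limits on the mean, and a t distribution with 6 degrees of freedom.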

Additional observations from a re-analysis of the deposited data

Results flagged for a closer look

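Effects of the Nfib shRNA that differed between 16T and KP1 by a test of the difference (adjusted p below 0.05, Benjamini-Hochberg over 15008 genes) are given as 16T minus KP1 on the log2 scale, for the homeobox genes named by the rule. Dlx5 had the largest difference, -2.92. The difference was -1.17 for Pou4f1, -0.95 for Pou3f2 and -0.71 for Pbx3. It was above 0 for Msx1 (1.17), Meis2 (0.92), Tshz2 (0.78), Irx2 (0.74), Irx1 (0.68), Tshz3 (0.53) and Pax9 (0.48).

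The effect of lowering Nfib in the 2 knockdown lines and of raising it in KP22, both turned towards higher Nfib, also differed by the same kind of test (knockdown lines minus KP22). In cluster B the difference was -1.12 for Hoxb2, -0.41 for Hoxb3, -0.54 for Hoxb4, -0.54 for Hoxb5, -0.27 for Hoxb6, -0.64 for Hoxb8 and -0.47 for Hoxb9. Above 0 were Emx1 (7.03), Nkx6-1 (1.96), Hoxd4 (1.88), Irx2 (0.71) and Meis3 (0.39). For Emx1 and Nkx6-1 the SEs in 16T and KP1, from 0.493 to 0.520, are near the largest of any feature, so both values rest on KP22 and no difference in response is read from them. Below 0 were Dlx5 (-2.00), Pou3f2 (-1.54), Msx1 (-1.25), Pou4f1 (-1.04), Pbx3 (-0.85), Pou2f2 (-0.46), Tshz1 (-0.38) and Irx5 (-0.31). Msx1 was hardly measured in KP22 (0.55 ± 0.49, adjusted p = 0.434 in the authors' deposited table), so no difference in response is read from it. The SE of Dlx5 in KP22 was large too (0.44).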

How the results depend on the processing

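Recentring was the only alternative that moved the effects themselves, by the median gene's value (-0.05 in 16T, -0.02 in KP1 and 0.05 in KP22). Among called effects of the genes named by the rule, no direction reversed under it. The other alternatives keep each effect as it is, so they could not reverse a direction. A minimum change of 1 left 6 called homeobox genes in 16T, 9 in KP1, 9 in KP22, 6 in the mean of the 3 effects, 3 in the difference between 16T and KP1 and 8 in that between the knockdown lines and KP22. The last 3 counts are out of 63 homeobox genes. Of all 15008 genes, 276 passed above 0 and 352 below 0 at this size in the mean of the 3 effects. The numbers were 477 and 302 for 16T minus KP1, and 730 and 524 for the knockdown lines minus KP22. The deposited test against 0.5 called 4 in 16T, 6 in KP1 and 9 in KP22. Under a t reference (6 degrees of freedom) 12 were called in KP1 and 7 in the difference between 16T and KP1. The other counts stayed within 1.5 times. Among the genes named by the rule, adjusting over all features with a single name ended the calls of Pou6f1 and Tshz1 in 16T. For the same genes, recentring on the median gene ended the calls of Hoxb6 and Irx5 in KP1 and of Pax9 in KP22. Recentring also added calls of Hoxb5 and Hoxb9 in 16T. Members outside that rule, such as Pbx4, were not followed singly under these settings. No paired analysis was possible because the table holds no values per sample; for the same reason leaving out each replicate was not run. Depth per library is unknown, and SEs had a median of 0.455 in 16T for genes with means from 10 to 100, against 0.0685 above 1000, so changes of weakly expressed homeobox genes were often not detectable.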
